A study of Homo sapiens with 4 samples.

Results

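The genes described here are 33 genes of the hypoxia response and of oxygen sensing, taken by symbol from a list, among 56865 genes with summed transcript estimates. RNA-seq of poly(A)-selected RNA was made from MDA-MB-468 (also spelled MDA-MD-468 in the labels), an established human breast cancer line that the labels class as triple negative. Cells at passage 12 were given 5 µM of MS1943, a small molecule named in the series title as an EZH2 degrader, for 3 days (MS1943 group, n = 2), or the vehicle DMSO (DMSO group, n = 2; no time is given for it). The labels give no genetic alteration in either group, no oxygen level and no arm exposed to low oxygen. The comparison asks which transcripts change under the compound. All 33 genes passed the filter on low counts: 3 encode subunits of hypoxia-inducible factor (HIF), 5 encode oxygen sensors or VHL, and 25 are genes induced by hypoxia in other settings.

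HIF is a pair of an oxygen-labile alpha subunit, encoded by HIF1A or EPAS1, and the stable partner encoded by ARNT. In oxygen, the prolyl hydroxylases encoded by EGLN1, EGLN2 and EGLN3 mark the alpha subunit, the VHL ubiquitin ligase binds the mark and the protein is destroyed, while the asparaginyl hydroxylase encoded by HIF1AN blocks its coactivator contact. In low oxygen the alpha subunit escapes and switches on genes for angiogenesis, glycolysis, collagen modification and pH control, some of which also respond to other stress pathways. Because this control acts largely on protein, transcript levels do not show whether HIF was active, and no protein was measured.

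The libraries held 69878745 and 47564377 estimated reads in the MS1943 group, against 64720699 and 71378893 in the DMSO group. The share of reads on the mitochondrial genome was 3.52% and 3.11% in MS1943 libraries, against 1.65% and 1.78% in DMSO libraries. The labels give dishes seeded in duplicate but do not say whether these were independent cultures, so p-values measure only the spread between these libraries, which may be technical. Titles carry 3 letters for each MS1943 library and 1 for each DMSO library, and whether the letters stand for pooled dishes is not stated, so the MS1943 libraries may each be a pool. The epithelial and basal markers fixed for this line were abundant, summing to 7413 and 6934 TPM in MS1943 libraries against 4975 and 4965 TPM in DMSO libraries. In that sum the keratin genes KRT5 (1.86 ± 0.07) and KRT17 (1.66 ± 0.07) and the growth factor receptor gene EGFR (0.58 ± 0.07) rose, while KRT8 (-0.66 ± 0.06) and the cadherin gene CDH1 (-0.24 ± 0.05) fell (log2 fold changes, MS1943 over DMSO ± SE). Of the receptor genes behind the triple-negative class, PGR had 0 reads in all 4 libraries. ESR1 was low, at 4.83 and 5.11 CPM with MS1943 against 3.17 and 3.25 CPM with DMSO, and ERBB2 had 66.8 and 63.3 CPM with MS1943 against 82.0 and 81.6 CPM with DMSO. The 5 leukocyte markers summed to 96.1 and 103 TPM in MS1943 libraries, against 187 and 190 TPM in DMSO libraries, nearly all of it CD14, while the pan-leukocyte gene PTPRC had 10 and 2 reads with MS1943 against 4 and 4 with DMSO. The 6 fibroblast markers summed to 18 and 15.3 TPM with MS1943 against 12.7 and 10.7 TPM with DMSO. Nearly all of it was COL1A1, at 17.75 and 15.1 TPM with MS1943 against 12.47 and 10.2 TPM with DMSO. The 5 endothelial markers summed to 0.911 and 0.757 TPM with MS1943 against 2.32 and 2.16 TPM with DMSO. The part of these markers in the results was not tested.

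Most of these genes were higher with MS1943. By the quasi-likelihood test of edgeR, with p-values adjusted by Benjamini-Hochberg over 19358 genes, 21 of the 33 genes rose (63.6%), 5 fell (15.2%) and 7 did not pass an adjusted p of 0.05. Among all tested genes 30.0% rose and 29.4% fell by the same rule, 59.3% in all. A step of at least 1.5-fold was passed upward by 13 of the 33 (39.4%) and downward by 1 (3.03%), against 14.8% and 15.1% of all genes. At least 2-fold rises were seen for 8 of the 33 (24.2%), against 7.97% of all genes, and at least 2-fold falls for 0 of the 33, against 7.93% of all genes. With total-read scaling in place of TMM, 17 of the 33 rose and 6 fell, and 39.8% of all calls were higher, against 50.5% with TMM. The 8 genes at least 2-fold higher are NDRG1, STC2, ADM, P4HA2, VEGFA, STC1, BHLHE41 and BHLHE40. The median log2 fold change of the 33 was 0.44, against -0.01 over all tested genes. In 29 of the 33 the CPM (a gene's reads adjusted for library size) of the MS1943 and DMSO groups did not overlap, a share near that of all genes, 78.3%. RNA of whole cultures cannot tell a change in the share of cells that express a gene from a change in its level per cell.

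Values for each library are given below as replicate 1 and then replicate 2, in CPM with edgeR's TMM factors. The test itself used the rounded counts with the same factors. Levels of different genes are compared in TPM, Salmon's abundance corrected for transcript length. Each log2 fold change is MS1943 over DMSO, given ± its SE, and adjusted p-values are edgeR's over all tested genes. Coordinates are GENCODE 29 on hg38.

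**Figure D1:**
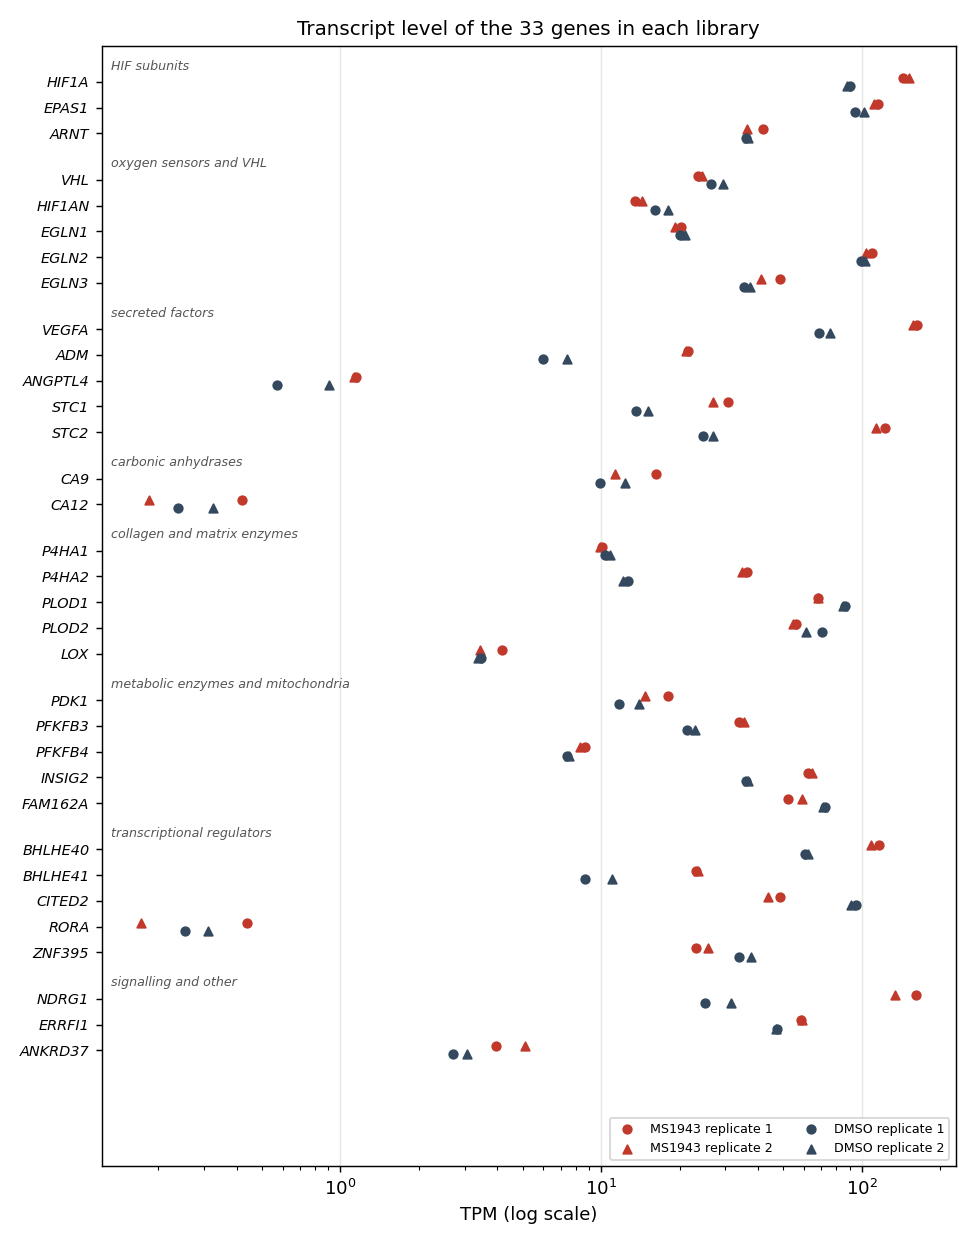
TPM (log scale) of the 33 genes in each library, in groups by role, with MS1943 libraries in red above DMSO libraries in dark blue and circles and triangles for replicates 1 and 2. NDRG1, STC2, ADM and P4HA2 stand furthest apart between the groups, while CA12 and RORA lie under 1 TPM in every library.

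HIF binds the core letters ACGTG or GCGTG, so the promoters of the genes were searched for these on both strands. The windows were the 250 bases before the RefSeq gene start on GRCh38.p14, present for 28 of the 33 genes and not for VHL, VEGFA, STC1, ZNF395 and NDRG1. On a window's other strand the letters read CACGT and CACGC, and in CACGTG both strands match over shared bases. At least 1 match was found in 21 of 28 windows (75%), against 43.2% of 35116 RefSeq windows and 55.3% of the 12014 windows of tested genes. By response, 13 of 18 genes that rose, 3 of 3 that fell and 5 of 7 that did not pass held a match. The windows of ADM, STC2, BHLHE40, ANKRD37, P4HA2, CA12 and EGLN1 lie wholly inside exons that GENCODE 29 annotates for the same gene, so they are not upstream of every annotated start. Stretches of 25 bases around a match follow for 10 genes, 7 that rose and 3 that did not pass, 5′ to 3′ on the gene's strand, with the matched letters in capitals. They show what a match looks like in its context, and a match is a string of letters, not a measured binding site. P4HA2, the paralog of P4HA1, has no match in its window, while HIF1A and EPAS1, not shown, have 1 match to GCGTG each. The first capital of the STC2 stretch belongs to a further match that begins before it. The RefSeq start of EGLN1 lies 1944 bases from the nearest GENCODE 29 start of that gene. The stretches of CA9, EGLN2, BHLHE41, P4HA1 and LOX also lie downstream of the outermost GENCODE 29 start of their gene. Their windows hold 72, 57, 90, 108 and 101 bases of that gene's exons.
ADM (chr11:10304962-10304986, plus strand, higher): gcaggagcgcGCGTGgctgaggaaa
STC2 (chr5:173328622-173328646, minus strand, higher): GCACGCaaacGCGTGgccgccgcca
CA9 (chr9:35673900-35673924, plus strand, higher): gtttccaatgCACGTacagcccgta
EGLN2 (chr19:40799133-40799157, plus strand, higher): gggcgcggtCACGTGcccaccgggc
BHLHE40 (chr3:4979278-4979302, plus strand, higher): cagggtagaaCACGTagctccaacc
BHLHE41 (chr12:26125037-26125061, minus strand, higher): ccggcgacgcGCGTGccctgtggcc
ANKRD37 (chr4:185396688-185396712, plus strand, higher): gtgtttgtgtACGTGcggccgtggc
EGLN1 (chr1:231422286-231422310, minus strand, not passed): gccgtggtgtACGTGcagagcgcgc
P4HA1 (chr10:73096938-73096962, minus strand, not passed): tgatcgagctCACGTagcgagggct
LOX (chr5:122078287-122078311, minus strand, not passed): aactttgcaaACGTGccagaaagtt

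Transcripts of HIF1A, EPAS1 and ARNT all passed the test as higher with MS1943, with the largest fold for HIF1A. HIF1A (ENSG00000100644, chromosome 14, 61695513 to 61748259) had 358 and 382 CPM in MS1943 libraries, against 204 and 183 CPM in DMSO libraries. Both MS1943 libraries lay well above both DMSO libraries (log2 fold change 0.93 ± 0.06, edgeR adjusted p = 2.0e-10). EPAS1, which encodes HIF-2 alpha (chromosome 2, 46293667 to 46386703), had 332 and 324 CPM with MS1943 against 269 and 256 CPM with DMSO. The groups did not overlap, but the step was smaller (0.32 ± 0.06, edgeR adjusted p = 6.5e-05). ARNT had 64.3 and 60.5 CPM with MS1943 against 55.8 and 54.6 CPM with DMSO (0.18 ± 0.06, edgeR adjusted p = 0.0114). The ARNT groups were close, and its call ended with total-read scaling (0.06, edgeR adjusted p = 0.282), without the low-count filter (adjusted p = 0.0880), with a transcript length offset (adjusted p = 0.0507) and when MS1943 replicate 1 was left out (adjusted p = 0.171).

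Per transcript, HIF1A stood at 143.5 and 151.9 TPM with MS1943 against 90.05 and 87.87 TPM with DMSO, and EPAS1 at 115.8 and 111.3 TPM with MS1943 against 94.58 and 102.2 TPM with DMSO. The HIF1A to EPAS1 ratio was therefore 1.24 and 1.36 in MS1943 libraries, against 0.952 and 0.86 in DMSO libraries. Summed over all transcripts of a gene, HIF1A RNA was the more abundant in both MS1943 libraries and EPAS1 RNA in both DMSO libraries. With 2 libraries against 2, the exact two-sided permutation test cannot go below p = 0.333, the value it gave for this ratio. With DMSO, the leading HIF1A transcripts, of 826 and 827 residues, were estimated at 50.9 and 47.1 TPM and at 22.4 and 20.9 TPM. EPAS1 transcripts of 870 and 259 residues were estimated at 72.1 and 70 TPM and at 13.4 and 19.3 TPM. The order with DMSO therefore depends on which transcripts are counted. Nearly all HIF1A estimates came from transcripts starting within the first start region, 98.9% ± 0.0553 with MS1943 and 98% ± 0.0388 with DMSO (SD, n = 2 each).

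The oxygen sensors did not move together. EGLN3, a prolyl hydroxylase gene that HIF itself induces, had 70.5 and 68.6 CPM with MS1943 against 46.9 and 53.3 CPM with DMSO. The groups were apart and EGLN3 rose by 0.47 ± 0.06 (edgeR adjusted p = 2.4e-06). EGLN1, which encodes PHD2, the main HIF prolyl hydroxylase of most cells, had 49.8 and 53.2 CPM with MS1943 against 52.6 and 50.2 CPM with DMSO, so its groups overlapped (0.00 ± 0.06, edgeR adjusted p = 0.990). EGLN2, which encodes PHD1, had 155 and 148 CPM with MS1943 against 131 and 130 CPM with DMSO. It rose by 0.21 ± 0.05 (edgeR adjusted p = 0.00222), a call that ended with total-read scaling (0.10, adjusted p = 0.0707). The readthrough gene RAB4B-EGLN2 covers 30.6% of the EGLN2 exon bases, at 2.81 and 2.59 TPM with MS1943 against 2.41 and 2.63 TPM with DMSO, so the split of their reads is uncertain.

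In TPM the order of the hydroxylases was EGLN2, EGLN3 and EGLN1 in both groups. EGLN2 averaged 106.8 ± 4.01 TPM with MS1943 and 101.3 ± 2.57 TPM with DMSO, with SD and n = 2 each. EGLN3 averaged 44.8 ± 5.30 TPM with MS1943 and 36.37 ± 1.41 TPM with DMSO, and EGLN1 averaged 19.73 ± 0.813 TPM with MS1943 and 20.5 ± 0.557 TPM with DMSO. Neighbours in that order differed by far more than their spread. EGLN3 transcripts outnumbered those of EGLN1 by 2.39 and 2.14 times with MS1943, against 1.76 and 1.79 times with DMSO (exact permutation p = 0.333, the smallest possible).

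VHL, the substrate receptor of the ligase that removes HIF alpha, had 42.8 and 44.8 CPM with MS1943 against 48.9 and 52.8 CPM with DMSO. It was lower in both MS1943 libraries (-0.22 ± 0.06, edgeR adjusted p = 0.00431). VHL-203, annotated as a non-coding transcript, held 30.2% and 25.9% of the gene's TPM with MS1943 against 17.1% and 17.9% with DMSO, and the VHL call ended with a transcript length offset (-0.11, edgeR adjusted p = 0.213). HIF1AN, which encodes the asparaginyl hydroxylase FIH, had 63.9 and 64.0 CPM with MS1943 against 59.9 and 62.5 CPM with DMSO (0.06 ± 0.06, edgeR adjusted p = 0.347). In TPM HIF1AN ran the other way, at 13.9 ± 0.662 with MS1943 and 17.1 ± 1.37 with DMSO (SD, n = 2 each). A transcript length offset likewise turned its log2 fold change to -0.19 (edgeR adjusted p = 0.0450), and total-read scaling turned it to -0.05, so no direction is given for it.

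**Figure D2:**
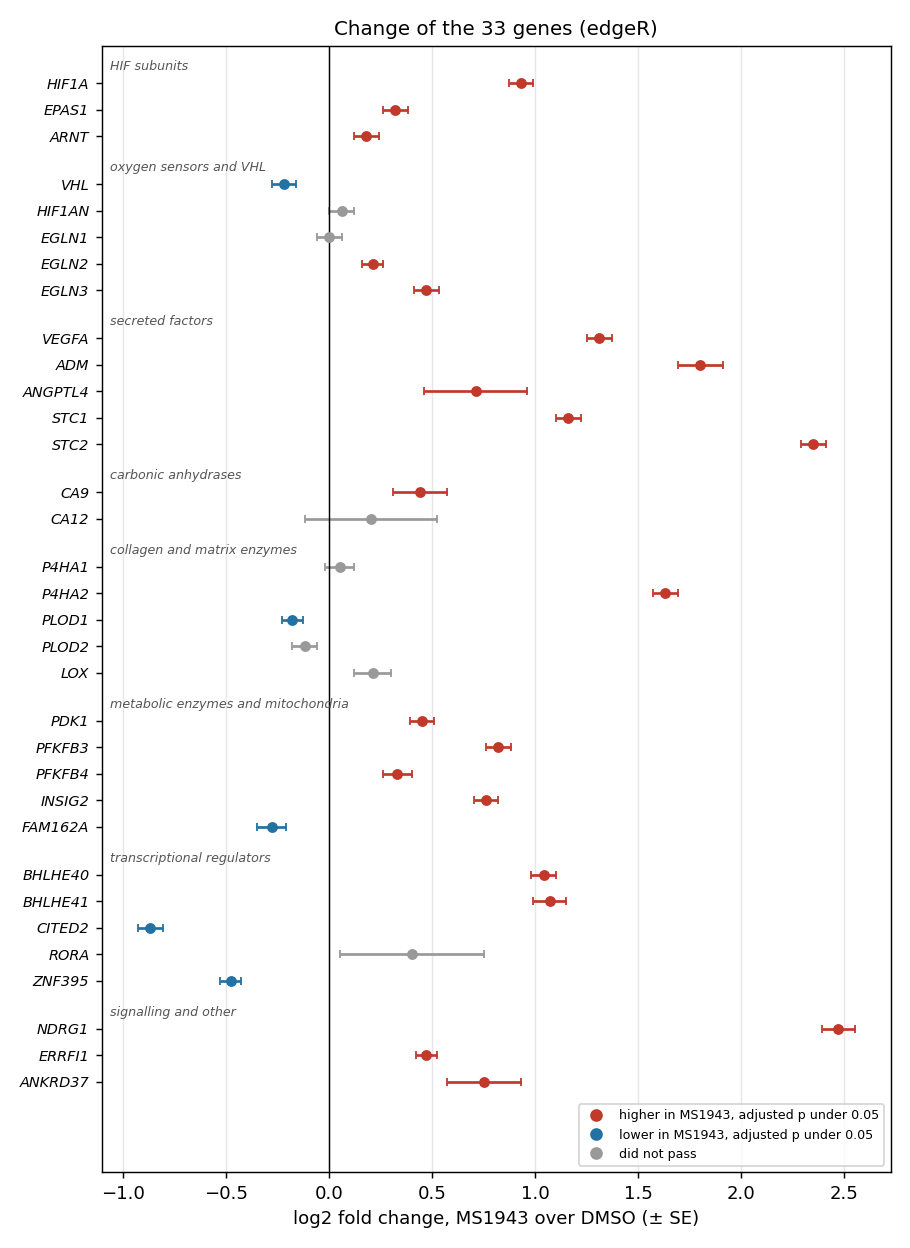
Log2 fold change of the 33 genes, MS1943 over DMSO, from edgeR, with bars of ± 1 SE, in red for genes that rose, blue for genes that fell and grey for genes that did not pass. The secreted factors all lie to the right of 0, from ANGPTL4 at 0.71 to STC2 at 2.35, while of the oxygen sensors and VHL only EGLN3, at 0.47, lies above 0.21.

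The secreted factors were the most uniform of the groups, since all 5 rose at least 1.5-fold, a step that 14.8% of all genes made. STC2 (chromosome 5, 173314713 to 173329503), which encodes the glycoprotein hormone stanniocalcin 2, had 266 and 261 CPM with MS1943 against 52.0 and 51.6 CPM with DMSO. Replicates nearly coincided within each group, which lay 5.08-fold apart (2.35 ± 0.06, edgeR adjusted p = 7.6e-17). VEGFA (chromosome 6, 43770184 to 43786487), the angiogenic growth factor, had 285 and 267 CPM with MS1943 against 108 and 115 CPM with DMSO. Both MS1943 libraries were above both DMSO libraries (1.31 ± 0.06, edgeR adjusted p = 5.5e-13). With 160.0 ± 3.58 TPM VEGFA was the most abundant of the 33 genes in MS1943 libraries, while with 71.9 ± 4.99 TPM it had rank 6 in DMSO libraries (SD, n = 2 each).

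ADM, the gene of the vasodilator peptide adrenomedullin (chromosome 11, 10304680 to 10307397), had 18.3 and 18.5 CPM with MS1943 against 4.47 and 6.06 CPM with DMSO. The DMSO libraries differed from each other more than the MS1943 libraries did, yet the groups were 3.48-fold apart (1.80 ± 0.11, edgeR adjusted p = 4.2e-11). STC1, the stanniocalcin 1 gene (chromosome 8, 23841915 to 23854807), had 85.8 and 75.8 CPM with MS1943 against 35.3 and 37.2 CPM with DMSO (1.16 ± 0.06, edgeR adjusted p = 1.2e-11). The fold of STC2 was the larger of these paralogs, and the STC2 to STC1 ratio in TPM was 4.02 and 4.21 with MS1943 against 1.81 and 1.77 with DMSO (exact permutation p = 0.333, the smallest possible). STC2-203, annotated as a retained intron, held 41.3% and 38.3% of the STC2 TPM with MS1943 against 39.1% and 46% with DMSO. The size of the ratio in both groups depends on whether that transcript is counted. ANGPTL4, which encodes an inhibitor of lipoprotein lipase, was low, at 1.32 and 1.18 CPM with MS1943 against 0.638 and 0.893 CPM with DMSO. Its groups did not overlap (0.71 ± 0.25, edgeR adjusted p = 0.0204), but the call ended under 5 alternatives, among them DESeq2 (adjusted p = 0.113) and leaving out MS1943 replicate 1 (adjusted p = 0.139) or DMSO replicate 1 (adjusted p = 0.142).

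The VEGFA rise was spread over its transcripts rather than carried by a single isoform. VEGFA-227 was estimated at 60.7 and 60 TPM with MS1943 against 26.8 and 30.3 TPM with DMSO, which was 37.7% of the gene's TPM with MS1943 and 39.7% with DMSO. VEGFA-225, whose annotated protein has 191 residues, was estimated at 36.7 and 32.3 TPM with MS1943 against 17.9 and 16.8 TPM with DMSO. VEGFA-222, with 215 residues, was estimated at 22.5 and 23.5 TPM with MS1943 against 9.41 and 10.8 TPM with DMSO. Each leading isoform was higher in both MS1943 libraries, and their shares of the gene moved by under 3 percentage points. These shares rest on Salmon's assignment of shared reads, whose error the files do not give. KDR, a gene of the endothelial list named after its values were seen because it encodes the main VEGF receptor, had 1.79 and 1.95 CPM with MS1943 against 4.48 and 4.53 CPM with DMSO, lower in both MS1943 libraries (-1.28 ± 0.15, edgeR adjusted p = 3.5e-07).

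CA9 and CA12 encode membrane carbonic anhydrases that handle acid outside the cell, and CA9 is among the genes most tightly tied to HIF-1. CA9 had 17.1 and 11.6 CPM with MS1943 against 9.70 and 11.7 CPM with DMSO, so MS1943 replicate 2 lay within the DMSO range and the groups overlapped. The fit called it higher (0.44 ± 0.13, edgeR adjusted p = 0.00705), but without MS1943 replicate 1 the log2 fold change was 0.10 (adjusted p = 0.545), and DESeq2 gave an adjusted p of 0.238. ARHGEF39 on the opposite strand covers 38.5% of the CA9 exon bases, at 3.69 and 3.49 TPM with MS1943 against 9.69 and 11.2 TPM with DMSO. Reads carry no strand information with this kit, so those of that stretch cannot be told apart. CA12 was at 0.617 and 0.481 CPM with MS1943 against 0.532 and 0.440 CPM with DMSO, with overlapping groups and too few reads to show a small difference (0.20 ± 0.32, edgeR adjusted p = 0.630).

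Among the 5 genes of collagen and matrix modification, P4HA2 alone rose, PLOD1 fell and the other 3 did not pass. P4HA2 (chromosome 5, 132191838 to 132295315), a catalytic subunit of collagen prolyl 4-hydroxylase, had 53.5 and 51.1 CPM with MS1943 against 17.1 and 16.7 CPM with DMSO. The groups were 3.10-fold apart with tight replicates (1.63 ± 0.06, edgeR adjusted p = 6.1e-14). P4HA1, which encodes the alternative catalytic subunit, had 19.8 and 18.9 CPM with MS1943 against 18.7 and 18.7 CPM with DMSO (0.05 ± 0.07, edgeR adjusted p = 0.585). In TPM, P4HA2 transcripts outnumbered those of P4HA1 by 3.61 and 3.50 times with MS1943 and by 1.23 and 1.12 times with DMSO (exact permutation p = 0.333, the smallest possible). Within P4HA2, transcript P4HA2-201 held 33.1% and 38.5% of the gene's TPM with MS1943 against 21.9% and 21% with DMSO.

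PLOD1, a collagen lysyl hydroxylase gene, had 115 and 111 CPM with MS1943 against 131 and 125 CPM with DMSO. It was slightly lower in both MS1943 libraries (-0.18 ± 0.05, edgeR adjusted p = 0.00723). PLOD2, its paralog that acts on collagen telopeptides, had 128 and 127 CPM with MS1943 against 147 and 131 CPM with DMSO (-0.12 ± 0.06, edgeR adjusted p = 0.0814). The PLOD2 groups were apart by less than the spread of the DMSO pair, and the gene passed as lower with total-read scaling (-0.24, edgeR adjusted p = 0.00154), without the low-count filter (-0.16, adjusted p = 0.0371) and when DMSO replicate 2 was left out (-0.21, adjusted p = 9.2e-04). LOX, the lysyl oxidase that cross-links collagen, had 10.9 and 9.57 CPM with MS1943 against 8.88 and 8.94 CPM with DMSO (0.21 ± 0.09, edgeR adjusted p = 0.0694). The LOX groups did not overlap, and the gene passed only without MS1943 replicate 2 (0.28, edgeR adjusted p = 0.0380). The PLOD2 window is shown whole, with its 3 matches in capitals (GRCh38.p14), because it holds matches to both cores in a gene that did not rise.
PLOD2 (chr3:146161185-146161434, minus strand): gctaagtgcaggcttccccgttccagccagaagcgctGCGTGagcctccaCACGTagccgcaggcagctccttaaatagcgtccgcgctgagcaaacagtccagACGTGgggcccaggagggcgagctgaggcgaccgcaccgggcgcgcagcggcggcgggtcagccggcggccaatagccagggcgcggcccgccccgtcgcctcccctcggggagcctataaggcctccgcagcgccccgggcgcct

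**Figure D3:**
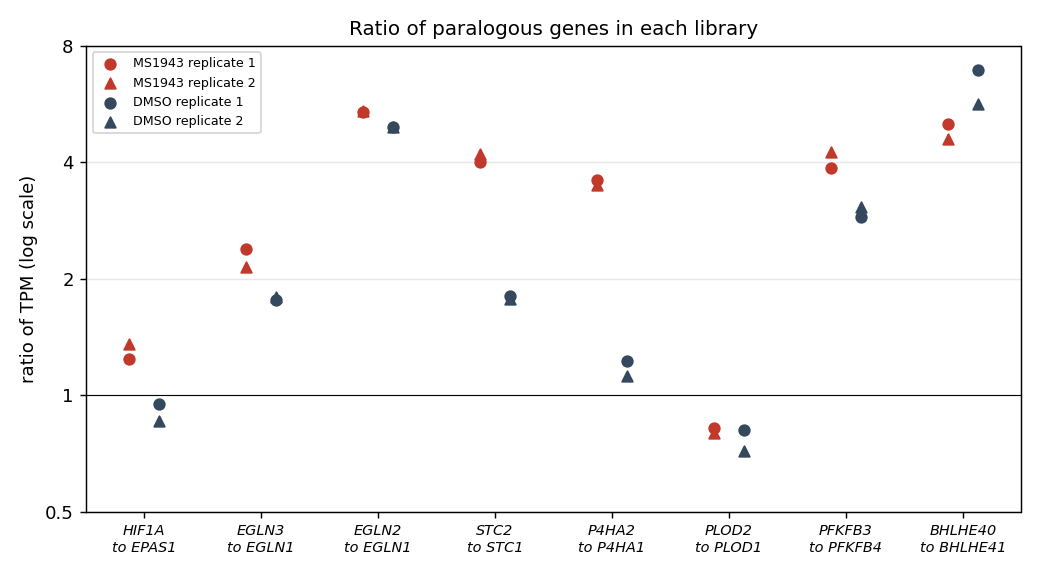
Ratio of TPM (log scale) between paired genes in each library, with MS1943 libraries in red left of DMSO libraries in dark blue and circles and triangles for replicates 1 and 2. The P4HA2 to P4HA1 and STC2 to STC1 ratios are higher in both MS1943 libraries, and the BHLHE40 to BHLHE41 ratio is lower in both. The PLOD2 to PLOD1 ratio overlaps between the groups. TPM is summed over all transcripts of a gene, and the BHLHE40 to BHLHE41 difference depends on which transcripts are counted.

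Of the metabolic genes, PDK1, PFKFB3, PFKFB4 and INSIG2 rose and FAM162A fell. PFKFB3 (chromosome 10, 6144934 to 6254644) makes the glycolytic activator fructose 2,6-bisphosphate and had 97.0 and 92.2 CPM with MS1943 against 53.0 and 54.4 CPM with DMSO. Its groups were 1.76-fold apart (0.82 ± 0.06, edgeR adjusted p = 2.2e-10). PFKFB4, a paralog at a lower level, had 19.0 and 18.0 CPM with MS1943 against 14.4 and 15.0 CPM with DMSO (0.33 ± 0.07, edgeR adjusted p = 6.7e-04). INSIG2, which encodes a sterol sensor that retains SCAP in the endoplasmic reticulum, had 76.5 and 76.7 CPM with MS1943 against 46.6 and 44.0 CPM with DMSO. INSIG2 was 1.69-fold higher with replicates close together (0.76 ± 0.06, edgeR adjusted p = 7.8e-10). PDK1, the kinase that restrains pyruvate dehydrogenase, had 42.9 and 39.8 CPM with MS1943 against 30.1 and 30.5 CPM with DMSO (0.45 ± 0.06, edgeR adjusted p = 4.0e-06). FAM162A, a mitochondrial protein gene induced by hypoxia, had 34.6 and 38.6 CPM with MS1943 against 46.3 and 42.6 CPM with DMSO, lower in both MS1943 libraries (-0.28 ± 0.07, edgeR adjusted p = 0.00123).

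In the transcript estimates, the PFKFB3 difference lay mainly in transcripts from a downstream start. Transcripts that start at the first site, led by PFKFB3-205, summed to 12.4 and 10.7 TPM with MS1943 against 12.7 and 11.7 TPM with DMSO, and these groups overlapped. Transcripts of the second start region, led by PFKFB3-203 and lying 57932 bases downstream (chromosome 10, 6202866 to 6202931), summed to 18.3 and 19.2 TPM with MS1943 against 5.71 and 8.55 TPM with DMSO. Both MS1943 libraries were above both DMSO libraries there, and the region held 54.3% ± 0.101 of the gene's TPM with MS1943 and 32% ± 7.40 with DMSO (SD, n = 2 each). The annotated proteins of these leading transcripts have 500 residues (PFKFB3-205) and 520 residues (PFKFB3-203). The transcripts have exons in common, Salmon's assignment error is unknown here, and no test was made.

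**Figure D4:**
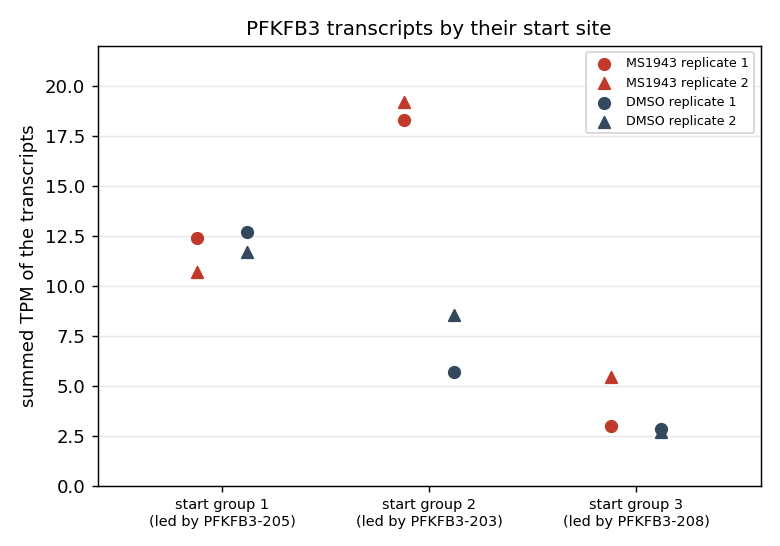
Summed TPM of PFKFB3 transcripts in 3 start regions, with MS1943 libraries in red left of DMSO libraries in dark blue and circles and triangles for replicates 1 and 2. The second start region, led by PFKFB3-203, is at 18.3 and 19.2 TPM with MS1943 against 5.71 and 8.55 TPM with DMSO, while the first start region overlaps between the groups. The third start region is at 3.01 and 5.45 TPM with MS1943 against 2.85 and 2.71 TPM with DMSO.

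The RefSeq windows of PFKFB3 and INSIG2 (GRCh38.p14) are shown whole, with matches to the core letters in capitals. The PFKFB3 window lies just before the first start, the one whose transcripts overlapped between the groups, and holds 1 match, to GCGTG read on the other strand. The INSIG2 window holds 2 matches, 1 to each core.
PFKFB3 (chr10:6144671-6144920, plus strand): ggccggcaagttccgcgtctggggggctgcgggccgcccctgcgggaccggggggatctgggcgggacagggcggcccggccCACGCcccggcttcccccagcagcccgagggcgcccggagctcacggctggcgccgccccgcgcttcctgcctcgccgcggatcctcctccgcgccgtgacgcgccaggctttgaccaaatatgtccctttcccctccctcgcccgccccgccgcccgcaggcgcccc
INSIG2 (chr2:118088221-118088470, plus strand): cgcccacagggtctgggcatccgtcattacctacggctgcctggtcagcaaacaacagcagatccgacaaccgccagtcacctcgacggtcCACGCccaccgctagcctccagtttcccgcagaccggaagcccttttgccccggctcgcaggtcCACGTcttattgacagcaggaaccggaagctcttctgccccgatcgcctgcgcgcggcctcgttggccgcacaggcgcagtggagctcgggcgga

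The transcriptional regulators went both ways. BHLHE40 and BHLHE41 encode the E-box repressors DEC1 and DEC2, which act in the circadian clock and in hypoxia. BHLHE40 (chromosome 3, 4979116 to 4985323) had 272 and 258 CPM with MS1943 against 130 and 128 CPM with DMSO, and was 2.05-fold higher (1.04 ± 0.06, edgeR adjusted p = 7.9e-12). BHLHE41 (chromosome 12, 26120026 to 26125127) had 34.4 and 41.0 CPM with MS1943 against 17.4 and 18.4 CPM with DMSO, and was 2.10-fold higher (1.07 ± 0.08, edgeR adjusted p = 6.3e-10). Both paralogs rose by a like amount in CPM with no overlap between the groups. Their TPM ratio, BHLHE40 to BHLHE41, was 5.03 and 4.6 with MS1943 against 6.95 and 5.65 with DMSO (exact permutation p = 0.333, the smallest possible).

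CITED2 showed the largest fall of the 33 genes. It encodes a protein that competes with HIF alpha for the coactivators CBP and p300 and so restrains HIF, and it is itself induced by HIF. CITED2 (chromosome 6, 139371807 to 139374620) had 48.2 and 45.6 CPM with MS1943 against 87.9 and 83.7 CPM with DMSO. Both MS1943 libraries were below both DMSO libraries, at 0.547 times the DMSO mean (-0.87 ± 0.06, edgeR adjusted p = 1.4e-10). In TPM CITED2 had rank 13 of the 33 genes with MS1943, at 46.25 ± 3.38, and rank 3 with DMSO, at 93.29 ± 2.94 (SD, n = 2 each). Its RefSeq window (GRCh38.p14) is shown because it holds the palindrome CACGTG, matched on both strands and in capitals, in a gene that fell.
CITED2 (chr6:139374649-139374898, minus strand): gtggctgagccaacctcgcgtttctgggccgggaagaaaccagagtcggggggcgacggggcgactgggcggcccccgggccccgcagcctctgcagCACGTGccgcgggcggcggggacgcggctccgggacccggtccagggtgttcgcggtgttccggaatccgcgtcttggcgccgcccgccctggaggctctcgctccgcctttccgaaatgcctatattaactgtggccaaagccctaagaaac

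ZNF395, which encodes a hypoxia-induced zinc finger protein, had 49.5 and 49.3 CPM with MS1943 against 69.3 and 68.1 CPM with DMSO. Both MS1943 libraries were lower (-0.48 ± 0.05, edgeR adjusted p = 3.8e-07). FBXO16 on the same strand covers 34.9% of the ZNF395 exon bases and was higher with MS1943, at 13.2 and 13.6 TPM with MS1943 against 8.44 and 7.54 TPM with DMSO, so the split of reads between them is uncertain. RORA, a nuclear receptor gene, was at 0.843 and 0.393 CPM with MS1943 against 0.486 and 0.480 CPM with DMSO. The MS1943 libraries lay on either side of the DMSO libraries (0.40 ± 0.35, edgeR adjusted p = 0.341), and at this depth no difference was detectable.

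NDRG1 had the largest rise of the 33 genes. It encodes a stress-responsive cytoplasmic protein studied as a suppressor of metastasis and is induced by hypoxia, iron chelation and other stresses. NDRG1 (chromosome 8, 133237171 to 133302022) had 276 and 230 CPM with MS1943 against 42.4 and 49.0 CPM with DMSO. The libraries of each group differed from each other, but the groups stood 5.53-fold apart (2.47 ± 0.08, edgeR adjusted p = 6.3e-15). In TPM NDRG1 had rank 3 of the 33 genes with MS1943, at 147.3 ± 19.3, and rank 15 with DMSO, at 28.3 ± 4.51 (SD, n = 2 each).

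ERRFI1, the gene of the EGFR inhibitor MIG6, had 124 and 126 CPM with MS1943 against 91.7 and 88.2 CPM with DMSO. It was 1.39-fold higher in tight replicates (0.47 ± 0.05, edgeR adjusted p = 3.3e-07). ANKRD37, an ankyrin repeat gene induced by HIF-1, was low, at 2.23 and 2.58 CPM with MS1943 against 1.37 and 1.47 CPM with DMSO. Its groups did not overlap (0.75 ± 0.18, edgeR adjusted p = 0.00146), but UFSP2 on the opposite strand covers 35.2% of its exon bases, at 31.8 and 29.8 TPM with MS1943 against 27.1 and 25.3 TPM with DMSO, and reads of that stretch cannot be told apart.

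Other genes of the pathway were read from separate lists, described by counts. Among all tested genes 30.0% rose and 29.4% fell. Of 17 listed genes of the HIF machinery 16 were tested, 7 rose (43.8%), 3 fell (18.8%) and 6 did not pass, with a median log2 fold change of 0.08. With total-read scaling 5 of the 16 rose and 7 fell, so the balance of the list turned with the scaling. HIF3A, which encodes a further HIF alpha subunit and was named after its values were seen, was low, at 1.41 and 1.14 CPM with MS1943 against 0.699 and 0.840 CPM with DMSO, and rose (0.74 ± 0.24, edgeR adjusted p = 0.0142). SIAH2 (0.49 ± 0.06) and SIAH1 (0.36 ± 0.06), ubiquitin ligases that act on prolyl hydroxylases, rose, as did CUL2 (0.24 ± 0.06), the scaffold of the VHL ligase. ELOB (-0.25 ± 0.06) and RBX1 (-0.23 ± 0.06), further subunits of that ligase, fell, so genes of its subunits moved in both directions. P4HTM (-0.30 ± 0.09), a transmembrane prolyl hydroxylase gene, also fell. Of 19 glycolytic HIF targets, 10 rose (52.6%, against 30.0% of all tested genes) and 3 fell (15.8%, against 29.4%), with a median of 0.38. The glycogen branching enzyme gene GBE1 (1.22 ± 0.06), the enolase gene ENO2 (1.22 ± 0.08), the phosphofructokinase gene PFKP (0.86 ± 0.06), HK2 (0.82 ± 0.06), a hexokinase gene, and SLC2A1 (0.78 ± 0.06), the gene of the glucose transporter GLUT1, led the rises. PFKL (-0.45 ± 0.06), PGAM1 (-0.61 ± 0.06) and the scarcely expressed ALDOC (-1.36 ± 0.44) fell. LDHA (-0.01 ± 0.07, edgeR adjusted p = 0.944) and PGK1 (0.00 ± 0.06, edgeR adjusted p = 0.992), named after their values were seen because they are standard HIF-1 targets, did not pass.

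Of 30 other hypoxia-inducible genes 27 were tested, 11 rose (40.7%), 7 fell (25.9%) and 9 did not pass, with a median of 0.13. DDIT4 (2.26 ± 0.06), an inhibitor of mTORC1 signalling, and TMEM45A (1.54 ± 0.07) led the rises, followed by the amino acid transporter gene SLC7A5 (1.30 ± 0.06), JMJD6 (1.01 ± 0.06) and the mitochondrial protease gene LONP1 (0.94 ± 0.06). EFNA3 (-0.76 ± 0.08), RAB20 (-0.70 ± 0.07), KCTD11 (-0.58 ± 0.10), CCNG2 (-0.53 ± 0.07), PPFIA4 (-0.52 ± 0.15), MIF (-0.36 ± 0.07) and AK4 (-0.22 ± 0.06) fell. The share that rose in this list was nearer to the 30.0% of all genes than the share of the 33 genes was. Of all tested genes 29.4% fell.

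VEGFA and STC2 are also known as genes induced by ATF4, the transcription factor of the integrated stress response, so that response is given beside them. Of 18 ATF4 and CHOP targets outside the 33 genes, 16 rose (88.9%), 0 fell and 2 did not pass, with a median log2 fold change of 1.79. Among all tested genes 30.0% rose and 29.4% fell. Because earlier results of these data were known when this list, the other lists and the 33 genes were chosen, their shares are descriptions only. DDIT3, which encodes CHOP, rose by 3.17 ± 0.07, PPP1R15A by 2.56 ± 0.06, ATF3 by 2.50 ± 0.06, SLC7A11 by 2.19 ± 0.06 and CTH by 2.73 ± 0.08. CEBPB (-0.03 ± 0.06, edgeR adjusted p = 0.754) and VLDLR (0.08 ± 0.06, edgeR adjusted p = 0.265) did not pass. The part of this response in the rise of any of the 33 genes was not tested. Nor was its part in the rise of genes of the other lists, such as DDIT4 and SLC7A5.

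**Figure D5:**
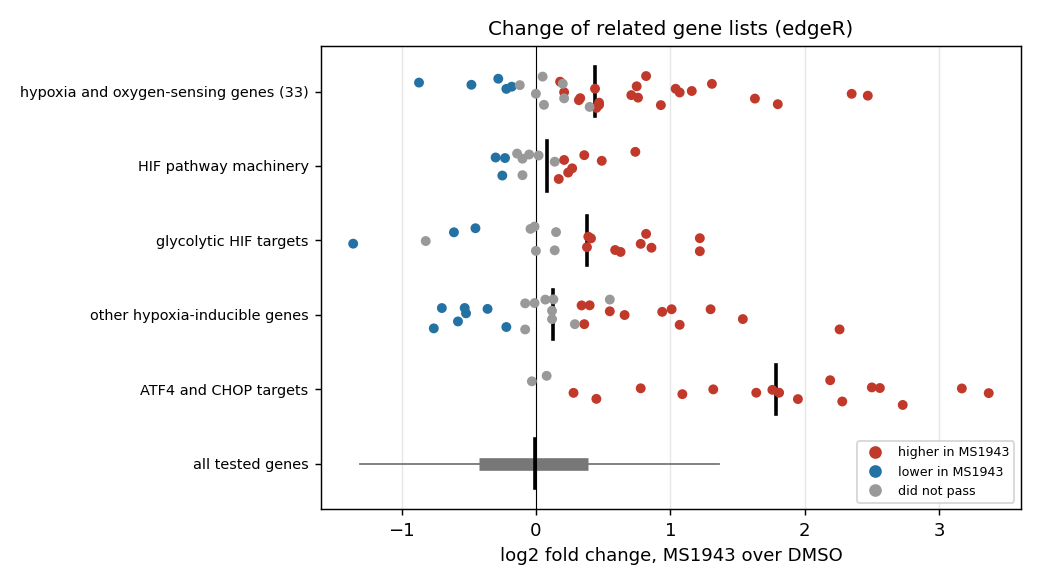
Log2 fold change, MS1943 over DMSO, of each tested gene in 5 lists (points, in red for genes that rose, blue for genes that fell, grey for genes that did not pass) with the list's median as a black bar, above the 5th to 95th percentile (line) and 25th to 75th percentile (box) of all tested genes. The median is 0.44 for the 33 genes, 0.08 for the HIF machinery, 0.38 for glycolytic targets, 0.13 for other hypoxia-inducible genes, 1.79 for ATF4 and CHOP targets and -0.01 for all tested genes.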

How the data were processed

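Per the labels' protocols, poly(A)-selected RNA of 4 libraries was made into libraries with Illumina's TruSeq RNA kit v2, which gives unstranded reads. The submitters' processing notes name hg38, Salmon 0.9.1, DESeq2 and R 3.4.3. The annotation release is not given in the sources used here. Per the file headers, the deposited values are Salmon's estimated counts for each transcript, many of them fractional. The deposited files also hold TPM per transcript, scaled for effective length, per the file headers.

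Of 197653 transcripts, 193511 matched GENCODE 29 by identifier without version; the 4142 others held 0.482% to 0.496% of the reads. Estimated counts and TPM were summed to 56865 genes, and counts were rounded. edgeR 4.0.16 (R 4.3.3) was run with TMM scaling, filterByExpr by group and treatment as the only term, leaving 19358 genes, with a common biological coefficient of variation of 0.0478. Benjamini-Hochberg adjustment ran over all of them, with a threshold of 0.05. Libraries of a group differed by more than counting error (chi-square over degrees of freedom 6.50 for MS1943 and 7.01 for DMSO) and were not taken for copies of 1 library, which does not show that they are independent cultures. The fit was tested on simulated data. Depth sets the floor: 3 reads stand for 0.0451 and 0.0656 CPM in the MS1943 libraries and 0.0456 and 0.0400 CPM in the DMSO libraries, covering counting error only. Alternatives were other scalings, DESeq2 1.42.0, no filter on low counts (genes with at least 1 read), an offset for transcript length and leaving out each library. Promoters are RefSeq's on GRCh38.p14. Start regions join starts within 5000 bases.

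All 33 genes are named. Those at least 1.5-fold changed, the HIF subunits and the oxygen sensors have full statistics; of other lists up to 5 genes with the smallest adjusted p and any gene moving against its list are named. The genes and lists were chosen with earlier results of these data known.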

Additional observations from a re-analysis of the deposited data

How the results depend on the processing

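Over all alternatives the number of the 33 genes that rose lay between 17 and 22 and the number that fell between 5 and 6, and 22 to 26 of the 26 calls were kept with their direction. Total-read scaling, which moved the median log2 fold change of all genes to -0.12 and the share of calls that were higher to 39.8% (50.5% with TMM), gave 5 risen and 7 fallen genes of the HIF machinery and 5 fallen genes of the glycolytic list. Leaving out a library gave 4 to 7 risen and 3 to 5 fallen machinery genes, the fewest risen without MS1943 replicate 1 and the most fallen without DMSO replicate 1. Log2 fold changes near 0 turned sign: HIF1AN to -0.05 with total-read scaling and -0.19 with the length offset, EGLN1 to -0.11 with total-read scaling and -0.03 without the filter, and P4HA1 to -0.07 with total-read scaling. Leaving out a library gave values between -0.06 and 0.04 for EGLN1, between -0.02 and 0.34 for CA12, between -0.00 and 0.07 for P4HA1 and between -0.31 and 0.79 for RORA. Apart from the length offset for HIF1AN (adjusted p = 0.0450), none of these passed the test. The cause was not tested. RLE scaling changed no call or direction of the 33 genes. The labels give the libraries no replicate numbers and do not say whether the title letters mark pairs, so no paired analysis was made. Groups of 2 and levels under 1 CPM (CA12 and RORA) limit what could be seen.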
